A study of Mus musculus with 3 samples.

Results

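Tenm4 and Nav2, a pair of long genes of the nervous system on mouse chromosome 7, were described at the EBF1-occupied regions nearest to them. A region belonged to a gene when that gene was the nearest protein-coding gene body to the region's centre, within 100 kb (GRCm38). By this rule 16 of the 4116 deposited regions were found, 8 for each gene. Overlapping regions were merged into loci, which gave 9 of the 2121 loci of the table, 4 for Tenm4 and 5 for Nav2. The genes were chosen on the scaled counts of these same libraries, with their number of loci and their ratios already known. The values below are therefore a description, and none of them tests the choice.

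EBF1 occupancy came from ChIP-seq, the sequencing of DNA precipitated with an EBF1 antibody, in pro-B cells grown from c-kit+ progenitors of C57BL/6 Ebf1-/- fetal liver (E16.5). All cells carried rtTA and a doxycycline-inducible FLAG-NICD1, the intracellular domain of Notch1, and received doxycycline at 1 µg/ml for 6 hours, so no library analysed here shows the uninduced state. One group received a retrovirus for tagged EBF1wt, the other for tagged EBF1E271A, a protein with a single amino acid substitution, and the input came from cells with EBF1wt. Each group held 1 library, and human BJAB cells were mixed in at 1 human cell per 10 mouse cells to set the scale. EBF1 came from a retrovirus in cells that lack their own, and how much of each protein the cells made was not analysed here. No RNA was measured, so the files give neither the expression of Tenm4 and Nav2 nor a check of the pro-B label by marker genes.

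EBF1 is a transcription factor that commits progenitors to the B lineage, and active Notch1 directs the same progenitors to the T lineage. Tenm4 encodes teneurin-4, a large transmembrane protein by which neurons and glia recognise neighbouring cells. Nav2 encodes neuron navigator 2, a protein of the cytoskeleton that takes part in the outgrowth of nerve fibres. Neither gene is known mainly for a role in lymphocytes, and a region near a gene need not act on it.

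Of the 9 loci, 8 lay inside a gene body, 1 lay upstream of Nav2, and none lay at a start. Tenm4 spans 740 kb (chr7:96171244-96911093) and Nav2 651 kb (chr7:48959063-49610090), both on the plus strand. RefSeq gives each gene 2 start sites, at 96171244 and 96211671 for Tenm4 and at 48959073 and 49246189 for Nav2. The Tenm4 start closest to a region was 163 kb from it, and the Nav2 start closest to a region was 15.3 kb from it. These starts were not the nearest to every locus. The upstream Nav2 locus was nearer to the start at 48959073, at 35.0 kb. The Nav2 locus 538 kb into the gene was 251 kb from the nearest Nav2 start. It was 139 kb from a start of another protein-coding gene. The 250 bases upstream of each gene's start closest to a region are shown. They come from RefSeq's GRCm38.p6 table, plus strand, while the sequences of the loci themselves were not used here.
Tenm4 start, chr7:96211421-96211670: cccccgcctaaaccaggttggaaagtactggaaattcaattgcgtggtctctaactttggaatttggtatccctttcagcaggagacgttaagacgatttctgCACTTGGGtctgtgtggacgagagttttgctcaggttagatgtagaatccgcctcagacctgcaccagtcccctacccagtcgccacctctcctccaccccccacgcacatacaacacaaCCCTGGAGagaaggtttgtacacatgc
Nav2 start, chr7:49245939-49246188: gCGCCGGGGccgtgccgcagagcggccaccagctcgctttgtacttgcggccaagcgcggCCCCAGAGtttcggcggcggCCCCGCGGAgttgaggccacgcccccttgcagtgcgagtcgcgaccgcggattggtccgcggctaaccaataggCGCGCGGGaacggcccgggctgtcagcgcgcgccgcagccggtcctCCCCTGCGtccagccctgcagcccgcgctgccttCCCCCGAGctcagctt

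Capitals mark stretches that differ by at most 1 letter from CCCNNGGG, the palindromic core that EBF1 binds, searched on both strands, with overlapping stretches joined. The exact core was in 0 of the 4 start windows of Tenm4 and Nav2, against 11.8% of the 32851 windows of 250 bases upstream of RefSeq starts. With 1 mismatch allowed it was in 4 of 4, against 69.3% of all windows. The printed Tenm4 window held 2 such matches and the printed Nav2 window 7, at GC contents of 51.6% and 74.4%. In the Nav2 window the matches CCCCGCGG and CCCGCGGA overlap and are printed as 1 stretch. GTGGGAA, the core of the Notch partner RBPJ, was in 0 of the 4 windows exactly, against 5.42% of all windows. With 1 mismatch allowed the RBPJ core was in 4 of 4, against 60.8% of all windows. These are matches of letters only, and their absence says nothing of binding.

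Signal was lower with EBF1E271A at all 4 Tenm4 loci. Values are the authors' spike-in scaled counts per region of 300 bp, and a locus is given by its overlapping region with the higher mean. Intervals are exact 95% intervals of the unscaled counts (Clopper-Pearson for ratios), which were 65 to 138 for EBF1wt and 92 to 221 for EBF1E271A at these 9 loci. They cover counting error only: with 1 library per group there is no replicate error and no test between the proteins.

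The first Tenm4 locus, 203 kb into the gene (chr7:96374066-96374365), had scaled counts of 213.4 (EBF1wt) and 101.2 (EBF1E271A). Its ratio of EBF1E271A over EBF1wt was 0.474 (0.375 to 0.601), the lowest of the 9 loci, and 80 of all 2121 loci had a lower one. The next locus, 281.6 kb into the gene (chr7:96452663-96452962), had the highest values of both proteins, 218.2 and 139.8, with a ratio of 0.641 (0.516 to 0.798). Another locus lay 1872 bp further (chr7:96454835-96455134), with 131.2 and 72.1 and a ratio of 0.549 (0.410 to 0.738). The fourth, about the middle of the gene at 368 kb (chr7:96539298-96539597), was the weakest of the gene for EBF1wt, with 109.1 against 63.9 and a ratio of 0.586 (0.427 to 0.807). Tenm4 thus had EBF1wt above EBF1E271A at each locus, and its strongest loci were the first pair.

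The 4 Tenm4 ratios lay close together. None of the 6 pairs of Tenm4 loci had a quotient of ratios whose 95% interval left out 1. The largest quotient, between the first and second loci, was 1.35 (0.976 to 1.87). Such a quotient does not depend on the scale between libraries. Summed over the 4 loci, the scaled counts came to 672.0 with EBF1wt and 377.0 with EBF1E271A, which gave 0.561 (0.495 to 0.637). The last locus stood at 49.8% of the gene's length, and the rest of the gene held 0 loci. Mir708 and Mir6394, microRNA genes inside Tenm4, were 125 kb and 68.5 kb from the nearest region.

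**Figure D1:**
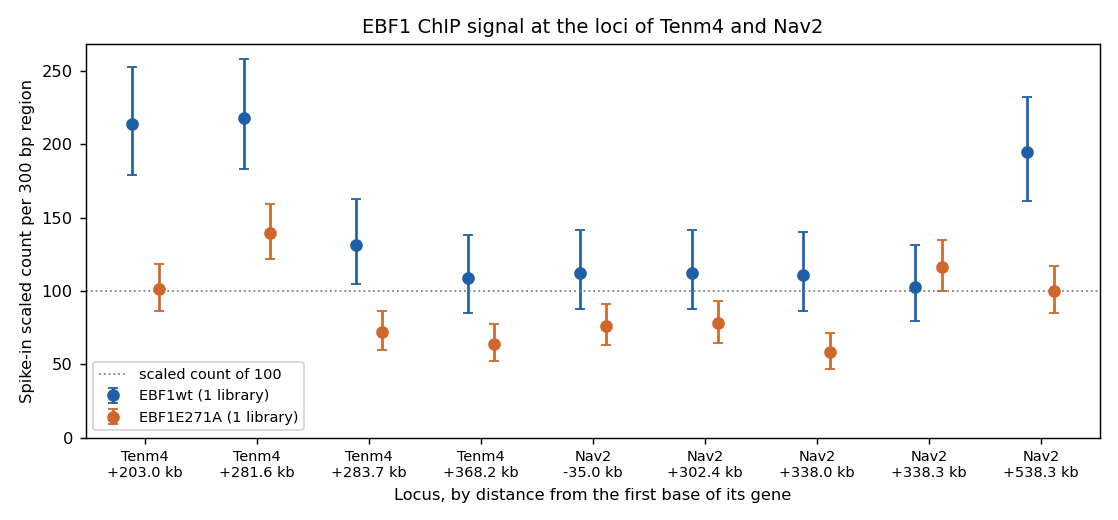
Spike-in scaled counts per 300 bp region at the 4 Tenm4 and 5 Nav2 loci, by distance from the first base of the gene; points are single libraries and bars exact 95% Poisson intervals. EBF1wt is the higher point at 8 of 9 loci, and the Nav2 locus at 338.3 kb is the exception.

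At Nav2, 4 of 5 loci had less signal with EBF1E271A and 1 had slightly more. A locus 35.0 kb upstream of the gene (chr7:48923913-48924212) had 112.3 with EBF1wt and 75.9 with EBF1E271A and a ratio of 0.676 (0.500 to 0.920). A locus 302 kb into the gene (chr7:49261329-49261628), 15.3 kb past the internal start, had nearly the same values, 112.3 and 77.8, with a ratio of 0.693 (0.513 to 0.942). The strongest Nav2 locus lay 538 kb in (chr7:49497248-49497547), with 194.5 and 99.9 and a ratio of 0.514 (0.403 to 0.656). These loci resemble those of Tenm4 in direction, while the upstream locus and that at 302 kb were nearer to the ratio of all loci.

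A pair of Nav2 regions 10 bp apart went in opposite directions. The left one, 338.0 kb into the gene (chr7:49296889-49297188), had 110.7 with EBF1wt and 58.2 with EBF1E271A and a ratio of 0.526 (0.381 to 0.728). The right one, at 338.3 kb (chr7:49297199-49297498), had 102.8 and 116.4, a ratio of 1.13 (0.849 to 1.53). EBF1wt was thus about equal on both sides, and EBF1E271A was the protein whose count differed between them. The quotient of the ratios was 2.15 (1.38 to 3.35), and 1.12 to 4.16 with the interval widened for the 16 pairs of loci compared within the genes. Since the interval of the right ratio held 1, that region is not shown to have more EBF1E271A than EBF1wt.

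Neighbours with so large a difference were few in the table. It held 28 pairs of neighbouring loci less than 1 kb apart, of which 6 lay on opposite sides of a ratio of 1. The Nav2 pair differed by 1.11 in log2 ratio, the second largest difference of the 28, whose median was 0.25. The quotient of ratios had an interval without 1 at 5 of the 28 pairs, the Nav2 pair included. Both Nav2 regions were also loci of a single region, a kind that made up 126 of all 2121 loci (5.94%). Pairs with both loci of this kind numbered 5 of the 28. Of these 5, 2 lay on opposite sides of 1, the Nav2 pair among them. The remaining 7 loci of Nav2 and Tenm4 each had 2 overlapping regions with nearly equal ratios. The largest difference between overlapping regions was at the fourth Tenm4 locus, with ratios of 0.586 and 0.652.

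Over its 5 loci Nav2 had summed scaled counts of 632.4 and 428.2, a ratio of 0.677 (0.597 to 0.768). This was 1.21 times (1.01 to 1.44) the ratio of Tenm4. Without the locus whose ratio was above 1, which was set aside after its value was seen, the Nav2 ratio was 0.589 and the quotient 1.05 (0.867 to 1.27). Leaving out the highest locus of Nav2 alone could only lower the quotient, and the new interval still holds 1.21. How far the higher ratio of Nav2 rests on that locus is therefore not shown. Of the 10 pairs of Nav2 loci, 4 had an interval that left out 1, each with that locus as a member, and 2 did so after widening for 16 pairs.

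**Figure D2:**
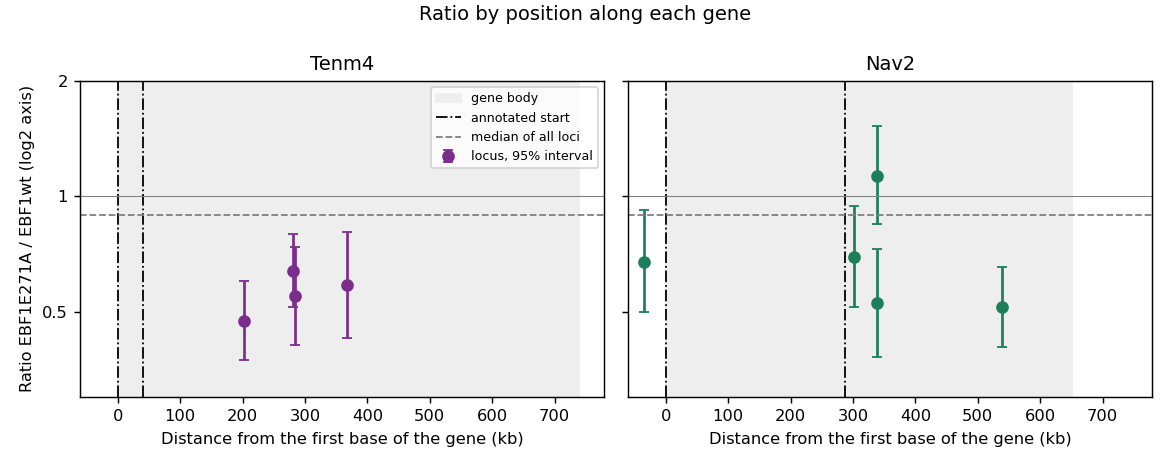
Ratio of EBF1E271A over EBF1wt (log2 axis) against the distance in kb from the first base of Tenm4 (left) and Nav2 (right), with exact 95% counting intervals; grey marks the gene body, dash-dotted lines the annotated starts and the dashed line the median ratio of all loci, 0.896. The Tenm4 ratios span 0.474 to 0.641, and those of Nav2 0.514 to 1.13.

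Against all loci the ratios of both genes were low. The median ratio of the 2121 loci was 0.896 and 67.2% of them were below 1. Over the 9 loci the median was 0.586, a log2 ratio of -0.76. No interval is given for it, because the 9 loci are not replicates and were chosen with their ratios known. The interval of 6 of the 9 loci, all 4 of Tenm4 and 2 of Nav2, lay below 0.896, as it did at 16.7% of all loci. By a rule of size with a pseudocount of 1, 6 of 9 were at least 1.5-fold lower with EBF1E271A, against 14.1% of all loci. None was 1.5-fold higher, against 3.11%. Only the first Tenm4 locus, 2.11-fold lower, passed a 2-fold rule, against 4.48% of all loci. With both libraries scaled to equal sums, which raises every log2 ratio by 0.22, it no longer passed, and 8 of 9 loci kept a ratio below 1. The interval of 8 of the 9 loci lay below 1 on the deposited scale and that of 6 with equal sums, where the Nav2 loci upstream and at 302 kb had intervals that held 1. Because the genes were picked on this contrast, nothing is read from the excess over the background.

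How the table was made bears on these ratios. Every region in it exceeds a scaled count of 100 in at least 1 library. Of the 9 loci, 6 exceeded 100 in EBF1wt alone, 2 of Tenm4 and 4 of Nav2, against 23.1% of all loci, and such loci have a ratio below 1 by construction. The Nav2 locus at 538 kb was among them by a small margin, with 99.9 for EBF1E271A. The 485 loci of other genes that exceeded 100 in EBF1wt alone had a median ratio of 0.678, and the 6 loci here 0.568. The 3 loci that exceeded 100 in both libraries had ratios of 0.474, 0.641 and 1.13, where 1447 such loci of other genes had a median of 0.932. Among loci of other genes with EBF1wt values in the range of the 9 loci (102.8 to 218.2), the median ratio was 0.867 over 1429 loci. How far the list's threshold sets the low ratios was not tested.

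**Figure D3:**
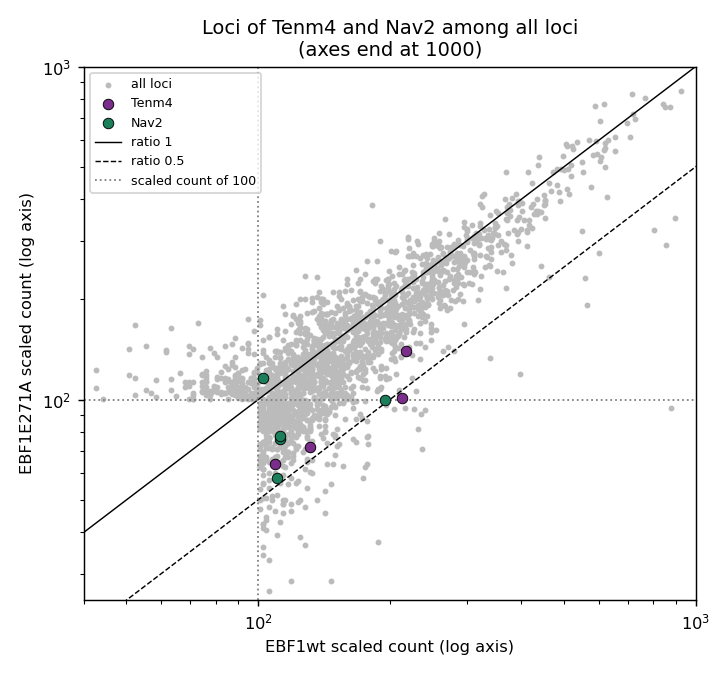
Scaled count of EBF1E271A against EBF1wt (both log axes) for all loci in grey, with Tenm4 in purple and Nav2 in green; 18 loci fall outside the plotted range. The loci of both genes lie between the lines of ratio 1 and 0.5 or just below the latter, apart from 1 Nav2 locus above the line of ratio 1, and 6 of the 9 lie under 100 for EBF1E271A.

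Signal levels at the 9 loci were modest. The median EBF1wt value was 112.3 against 143.9 over all loci, and 77.8 against 130.9 for EBF1E271A. Of the 2121 loci, 460 had a higher EBF1wt value than the strongest Tenm4 locus at 281.6 kb and 599 a higher one than the strongest Nav2 locus at 538 kb. The weakest EBF1wt value, 102.8 at the Nav2 locus at 338.3 kb, was near the threshold of the list.

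Few genes of this length held as many loci, a number that was known when the genes were chosen. Of 227 protein-coding genes of at least 500 kb, 28 had a locus with its centre inside, and Tenm4 and Nav2, with 4 each, were the ones with more than 3. The next was Auts2, a gene of neural development, with 3 loci. Together the 227 genes held 41 loci, or 0.0213 per 100 kb, against 0.541 in Tenm4, 0.614 in Nav2 and 0.109 over all protein-coding genes. The 33 loci inside other genes of this length had a median ratio of 0.982, against 0.896 over all loci. Of these 33, 24.2% were at least 1.5-fold lower, against 14.1% of all loci, and 12.1% at least 2-fold lower, against 4.48%. Their median was the higher value, but its 95% interval in log2 ratio was -0.47 to 0.18. That interval held the -0.16 of all loci, so a higher median is not shown. Low ratios were more frequent among the 33 loci. Those at least 2-fold lower included Auts2 loci with ratios of 0.351 and 0.342. Loci far from starts and close to them had like medians, 0.896 at 1397 loci of other genes over 10 kb from a coding start and 0.905 at 253 within 1 kb of one. Low ratios were more frequent at the far loci. There 15.1% were at least 1.5-fold lower, against 9.49% of the close ones, and 5.15% were at least 2-fold lower, against 0.79%. Whether distance from a start bears on the ratios was not tested.

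**Figure D4:**
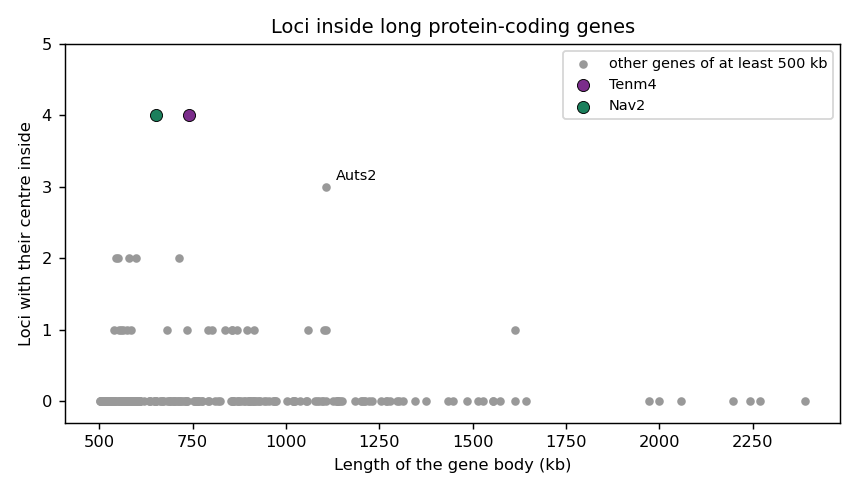
Number of loci with their centre inside each protein-coding gene of at least 500 kb, against the length of the gene body in kb. Tenm4 and Nav2 stand at 4 loci, Auts2 at 3, and most of the 227 genes at 0.

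Other loci of chromosome 7 had ratios near that of the whole table. The 154 loci of other genes on the chromosome had a median ratio of 0.874, and 11.0% were at least 1.5-fold lower. The 43 of these within 10 Mb of a Tenm4 or Nav2 locus had a median of 0.873. Tenm4 stood alone: the nearest locus to its left was inside Mesd, 12.5 Mb away, with 67 whole protein-coding genes between, and the nearest to its right was inside Myo7a, 1.54 Mb away. The gap on the left was the second longest of the 162 between neighbouring loci on the chromosome, whose median was 193 kb. The Mesd and Myo7a ratios were 0.877 (0.740 to 1.04) and 1.06 (0.847 to 1.34).

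Nav2 had closer neighbours. A locus inside Zdhhc13, 134 kb to the left of the upstream Nav2 locus, had 101.2 and 97.4, a ratio of 0.963 (0.715 to 1.31). A locus near Htatip2, 234 kb to the right of the last Nav2 locus, had 162.9 and 120.8, a ratio of 0.742 (0.581 to 0.952). The Htatip2 and Zdhhc13 loci lay 122 kb and 169 kb from the Nav2 body and nearer to those other genes, while the farthest Nav2 locus by the rule was the one at 35.0 kb.

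Among the 17 genes with at least 4 loci, Tenm4 had the second lowest ratio of summed counts and Nav2 the third. The lowest was Cux1 at 0.482, and Myl10, Hip1 and Col26a1 followed Nav2 at 0.682, 0.720 and 0.729. All 4 of these genes lie on chromosome 5 between 135.4 and 136.9 Mb, whereas Tenm4 and Nav2 are 46.9 Mb apart on chromosome 7. The median of the 17 genes was 0.849. The place of Nav2 depends on the measure. By the median ratio of its loci, 0.676, it also came after Hip1 (0.633), Myl10 (0.647) and Col26a1 (0.674). The limit of 4 loci was the number in Tenm4, and both genes were chosen with their ratios known, so these places test nothing. All loci had a ratio below 1 at 4 of the 17 genes, Tenm4 among them, and Tenm4 was the one gene with every interval below the median of all loci. The ratios of Tenm4 spanned 0.43 on the log2 scale, against a median span of 0.88 over the 17 genes and 1.13 for Nav2.

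**Figure D5:**
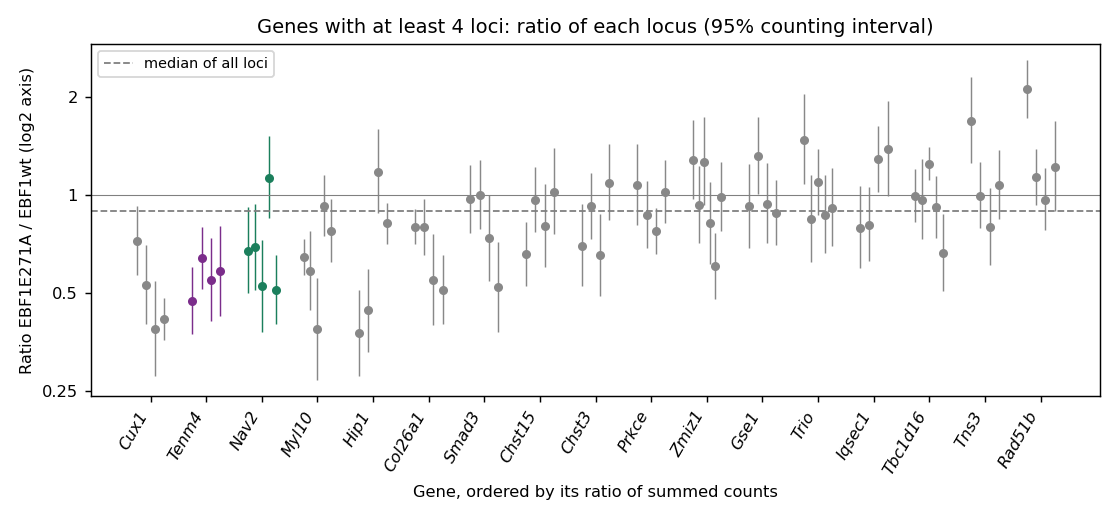
Ratio of EBF1E271A over EBF1wt (log2 axis) at each locus of the 17 genes with at least 4 loci, ordered by the ratio of summed counts, with exact 95% counting intervals; the dashed line is the median of all loci, 0.896. All 4 Tenm4 loci (purple) have intervals below it, and 1 Nav2 locus (green) has a ratio above 1.

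The genes most like Tenm4 and Nav2 were sought among the other 15 of these, by the distance between mean values per locus of both libraries on a log2 scale. With 2 libraries this compares levels only. Smad3, which encodes a signal transducer of TGF-beta, was the nearest to both, at a distance of 0.41 from Tenm4 and 0.38 from Nav2. Its 4 loci had a mean of 132.8 for EBF1wt and 111.0 for EBF1E271A, against 168.0 and 94.2 for Tenm4 and 126.5 and 85.6 for Nav2. The chondroitin sulfotransferase genes Chst3 and Chst15 and the coregulator gene Zmiz1 were also among the 5 nearest of each, joined by Gse1 for Tenm4 and by Trio for Nav2. None of these 6 genes had a median ratio as low as those of Tenm4 and Nav2, the lowest being 0.813 at Chst3. Single low loci did occur in them, the lowest at Smad3 with a ratio of 0.522 (0.380 to 0.720). Smad3, Chst3, Chst15 and Zmiz1 each had 1 locus with its interval below 0.896, while Gse1 and Trio had 0.

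Of 56 listed genes of neuronal recognition and outgrowth, 10 had a locus, 18 loci in all, while 7.46% of all protein-coding genes had one. No test was run on this share, and the list was not matched to all genes by gene length. Of the 227 protein-coding genes of at least 500 kb, 28 had a locus inside, a narrower rule than within 100 kb. The other teneurin genes Tenm1, Tenm2 and Tenm3 had 0 loci, as did the genes of their synaptic partners, the latrophilins Adgrl1 to Adgrl3 and the FLRT proteins Flrt1 to Flrt3. Of the other navigator genes Nav3 had 0 loci and Nav1 had 1, inside the gene, at 204.0 with EBF1wt and 194.8 with EBF1E271A, a ratio of 0.955 (0.775 to 1.18). Trio, which encodes an exchange factor for small GTPases of the cytoskeleton, had 5 loci with ratios of 0.844 to 1.48, and Abi1, an actin regulator gene, had 1 at 0.908. The other navigator and the cytoskeletal genes thus had ratios near that of all loci or above it.

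Axon guidance genes were mixed. Slit1, which encodes a repellent ligand, had 1 locus at 204.0 and 176.5 (ratio 0.865) and 1 at 123.3 and 72.7 (0.590, 0.439 to 0.797). Nrp1, a receptor gene, had 2 loci with ratios of 1.24 (0.95 to 1.63) and 1.12. Among adhesion and neural development genes, the 3 loci of Auts2 (chr5:131600348-131853609) had ratios of 0.718, 0.351 and 0.342. Dscam (0.939), Ptprs (0.870) and Nrxn2 (1.16) had higher ones.

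Over the list, 13 of 18 loci had a ratio below 1 and 5 a ratio at or above it, and with equal sums the split was 6 to 12. Its median log2 ratio was -0.17, against -0.16 over all loci. At least 1.5-fold lower were 4 of the 18, 2 of them in Auts2, against 14.1% of all loci, and 0 were 1.5-fold higher, against 3.11%. Without Auts2, which like Cux1 and Myl10 lies on chromosome 5, the list had 15 loci and a median log2 ratio of -0.12. Of these 15 loci, 2 were at least 1.5-fold lower.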

How the data were processed

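The members and gene lists were chosen with earlier results of these data known. The deposited values are a signal, counts per region scaled by the authors, per the file headers, with human spike-in chromatin, per the labels. Per the submitters' processing notes, the tools were deepTools (3.5.0 and 3.3.2), bedtools 2.27.0, MACS2 2.2.7.1, SAMtools 1.10 and Bowtie2 2.3.5.1, and the mouse build GRCm38. The calling of regions and the scale factors are not described in the labels. All values were whole multiples of 1.5811 (EBF1wt) or 0.6325 (EBF1E271A), within 0.001 counts, so unscaled counts came from division by these steps. Added over all 4116 regions, the unscaled counts came to 515897 (EBF1wt) and 1105818 (EBF1E271A). Reads in overlapping regions enter these sums more than once, and 1995 of the 2121 loci had 2 or more regions. Input values were not used here. PCR copies are not separate molecules, and intervals assume scale factors without error.

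Genes and starts came from RefSeq tables of GRCm38.p6 (21900 protein-coding genes). Exons and introns were not analysed here. Scripts ran in Python 3.11.15 with scipy 1.17.1. Ratios and intervals were tested on simulated counts with counting error only, so replicate and scale error were not covered. Locus merging was tested on a small made-up set of regions. Quotients of ratios carry exact conditional intervals, widened by Bonferroni for 16 pairs where stated. The text names each member locus, each locus of the related list or its range (1 gene is not reported here), the nearest loci on either side and the 5 genes nearest in level. Other settings changed the scale, pseudocount, region per locus, fold, and limit on distance or strength. Merging regions within 1 kb and loci above 100 in both libraries were added after seeing the data, as were the comparisons of long genes and of neighbouring loci.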

Additional observations from a re-analysis of the deposited data

How the results depend on the processing

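No paired analysis was possible because each group holds 1 library. All 36 recomputed ratios of single loci stayed within their counting intervals. The summed ratios did so as well, except with equal sums, which gave 0.654 for Tenm4 and 0.790 for Nav2, both above their intervals. The 36 single ratios are no check of stability. Equal sums raised every log2 ratio alike, by 0.22 or by 0.15 without the highest region, less than the intervals allow. Loci of 1 region could not change with the choice of region. The median log2 ratio was -0.76 to -0.54 over the settings that kept all 9 loci, and -0.95 over the 3 loci in stronger regions. With equal sums the median of all loci turned from -0.16 to 0.06 and that of the related list from -0.17 to 0.05. The count of loci at least 2-fold from 1, 1 as reported, was 0 with equal sums, with or without the highest region, and 6 under a 1.5-fold rule. The 1.5-fold count of 6 was 4 with equal sums, and 5 with the highest region left out of the sums. Of the 3 loci at least as strong as the median region, 3 lay below the median ratio. Of the 3 loci above 100 in both libraries, 2 lay below it, 2 had an interval below it and 2 were at least 1.5-fold lower, since fewer loci were left. In the related list, the 13 loci below 1 became 6 with equal sums and 6 in stronger regions; the 5 at or above 1 became 12 with equal sums, 9 without the highest region and 2 in stronger regions. Counts of 65 to 138 for EBF1wt limit each ratio.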
